A study of Gallus gallus with 6 samples.

Results

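The neighbourhood of Foxi3, a forkhead transcription factor required for ear development, was described over 599 kb of chick chromosome 4 (galGal4, chr4:85299360-85898618). The window is the stretch covered by the predicted AP1 sites around Foxi3, so its borders came from the genome sequence and not from the ChIP-seq signal. Its members were all intervals that fell in it, from every list used, 588 of 245419 in the series. They comprised H3K27ac and H3K27me3 peaks called by Homer and by MACS2, putative enhancers, predicted AP1 sites and DREiVe regions. All were listed as positions, without peak heights or read numbers, so sequencing depth is unknown from these lists.

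Pieces of posterior pre-placodal region (pPPR), ectoderm that gives rise to otic-epibranchial progenitors (OEPs), were taken from chick embryos at HH6 and cultured in DMEM for 6 h. FGF2 explants received 0.25 ng/µl FGF2, and control (Cnt) explants received none. About 100 tissues were pooled for each condition, and nano-ChIP-seq, a protocol for few cells, gave 1 library for each condition and mark, beside an input. With 1 library in each group there was no spread between replicates, no test was possible, and each comparison describes these libraries. The tissue label was not checked against marker genes, because gene positions were not used here.

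Foxi3 is expressed in the pre-placodal ectoderm and in OEPs, and FGF signals are needed for OEPs to form. H3K27ac marks active enhancers and promoters, while H3K27me3, laid down by Polycomb repressive complex 2, is found at repressed genes. A peak-dip-peak pattern of H3K27ac is used to locate enhancers, because the nucleosomes beside bound factors carry the mark. AP1 is a dimer of Jun and Fos proteins that acts downstream of MAP kinase signalling. DREiVe finds groups of short motifs that are conserved between vertebrates. In the newer chick assembly GRCg7b, the neighbours of FOXI3 are THNSL2 on one side and EIF2AK3, which encodes a stress kinase, on the other. Distances below are measured from the start of Foxi3-E1.

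Foxi3-E1 (chr4:85595147-85595756, 610 bp) and Foxi3-E2 (chr4:85611260-85611770, 511 bp) are the pair of elements that the study cloned into reporters, with 15503 bp between them. The study picked them among putative enhancers found with these same H3K27ac data. FGF2 peaks and FGF2 enhancers at these elements therefore follow in part from that choice. Foxi3-E1 began 296 kb from the start of the window and Foxi3-E2 ended 287 kb before its end. The designed primers are shown because they mark the ends of these elements, which serve as the landmarks here. They are written 5′ to 3′, and none of their bases is capitalised.
Foxi3-E1 cloning, forward: tctgacatttcatcatggcttca
Foxi3-E1 cloning, reverse: ggtcatctgaatgacaactgtctc
Foxi3-E2 cloning, forward: tttggccctgttcaaatgg
Foxi3-E2 cloning, reverse: cagtttgttgataccttcagtgt
Foxi3-E1 ChIP-qPCR, forward: gcagggatggccttacatca
Foxi3-E1 ChIP-qPCR, reverse: acgtgcagccatggaacata

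Homer called 45 H3K27ac peaks in the FGF2 library and 19 in the Cnt library within the window. The ratio of 2.37 compares with 1.14 over the genome. Of 1454 genome tiles as long as the window and holding at least 10 peaks, 6.46% had a ratio as large or larger. Each Homer peak was 751 bp wide, so the peaks covered 33.8 kb in FGF2 explants and 14.3 kb in Cnt explants. MACS2, run by the authors on the same reads, listed fewer intervals in FGF2, 31 against 44 in Cnt, a ratio of 0.705 that is close to the genome ratio of 0.701. The MACS2 intervals of FGF2 were wider, with a median of 1270 bp and a largest of 9635 bp, against a median of 709 bp and a largest of 6307 bp in Cnt. They covered 64.6 kb in FGF2 explants and 39.9 kb in Cnt explants, a ratio of 1.62, while over the genome the MACS2 ratio of covered length was 0.807. Among 1167 tiles, 8.31% reached 1.62 or more. Thus the number of intervals went in opposite directions with the 2 callers, and the length covered went in the same direction. As both callers used the same libraries, this is not independent support.

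Wide intervals made the difference between the MACS2 lists. In FGF2, 13 of 31 intervals (41.9%, against 17.3% of intervals over the genome) were 2 kb or wider, and in Cnt 3 of 44 (6.82%, against 14% over the genome). Intervals of 5 kb or more numbered 4 in FGF2 (12.9%, genome 2.4%) and 1 in Cnt (2.27%, genome 1.63%). The 4 of FGF2 were chr4:85523533-85533167 (9635 bp), chr4:85552043-85558496 (6454 bp), chr4:85444738-85450699 (5962 bp) and chr4:85560147-85565195 (5049 bp). The 1 of Cnt was chr4:85443018-85449324 (6307 bp). It shared 4587 bp with the FGF2 interval of 5962 bp, so MACS2 called broad H3K27ac in this stretch in both conditions. Homer called H3K27ac there in FGF2 (chr4:85444791-85445541 and chr4:85448968-85449718) and not in Cnt.

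**Figure D1:**
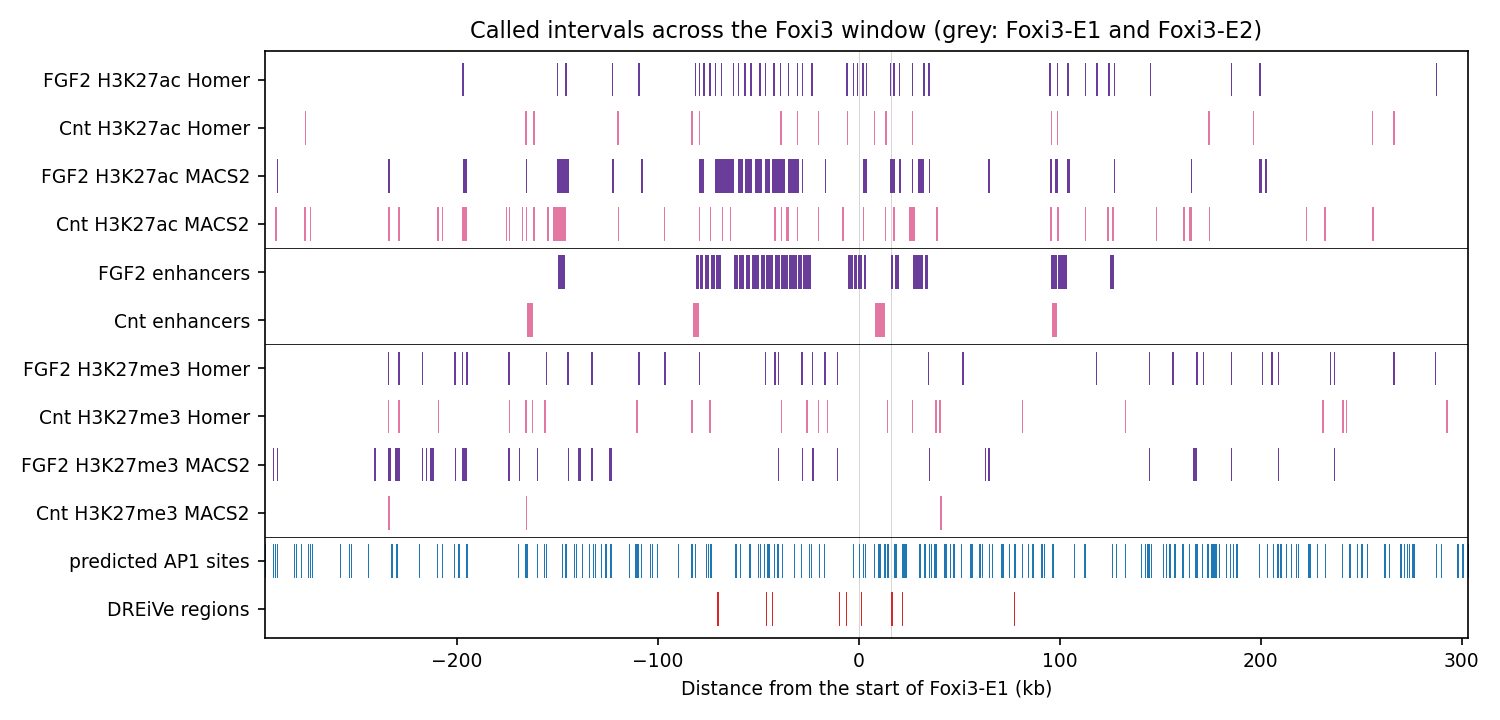
Every interval of the window by list, FGF2 in violet and Cnt in pink, along the distance from the start of Foxi3-E1 in kb; blue bars are joined AP1 sites, red bars DREiVe regions and grey lines Foxi3-E1 and Foxi3-E2. Intervals narrower than 0.6 kb are drawn 0.6 kb wide. The 45 FGF2 Homer H3K27ac peaks and the 28 FGF2 enhancers gather left of and around Foxi3-E1, where 9 of the 19 Cnt Homer peaks and 2 of the 4 Cnt enhancers lie too (-95.8 to 54.2 kb).

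The extra H3K27ac of FGF2 explants was concentrated in the middle of the window. In 50-kb bins, the 3 bins richest in FGF2 Homer peaks were adjacent and ran from -95.8 to 54.2 kb. They were picked by this count, which is therefore a description. These 150 kb, 25% of the window, held 29 FGF2 and 9 Cnt Homer peaks, and the other 9 bins held 16 FGF2 and 10 Cnt peaks. By MACS2, H3K27ac covered 45.9 kb in FGF2 and 10.2 kb in Cnt inside these bins. In the other 9 bins it covered less in FGF2, 18.7 kb against 29.7 kb in Cnt. The bin from -95.8 to -45.8 kb differed most, with 12 FGF2 and 2 Cnt Homer peaks and with 22.1 kb in FGF2 and 1.29 kb in Cnt covered by MACS2. From -195.8 to -145.8 kb, MACS2 covered 5.71 kb in FGF2 and 10.7 kb in Cnt, while Homer called 2 peaks in each. Within 50 kb of Foxi3-E1 there were 19 FGF2 and 7 Cnt Homer peaks. The study chose this element with the same H3K27ac data, so this span was not set independently of the peaks. MACS2 covered 26.5 kb in FGF2 and 8.89 kb in Cnt in the same span, with 12 FGF2 and 11 Cnt intervals.

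**Figure D2:**
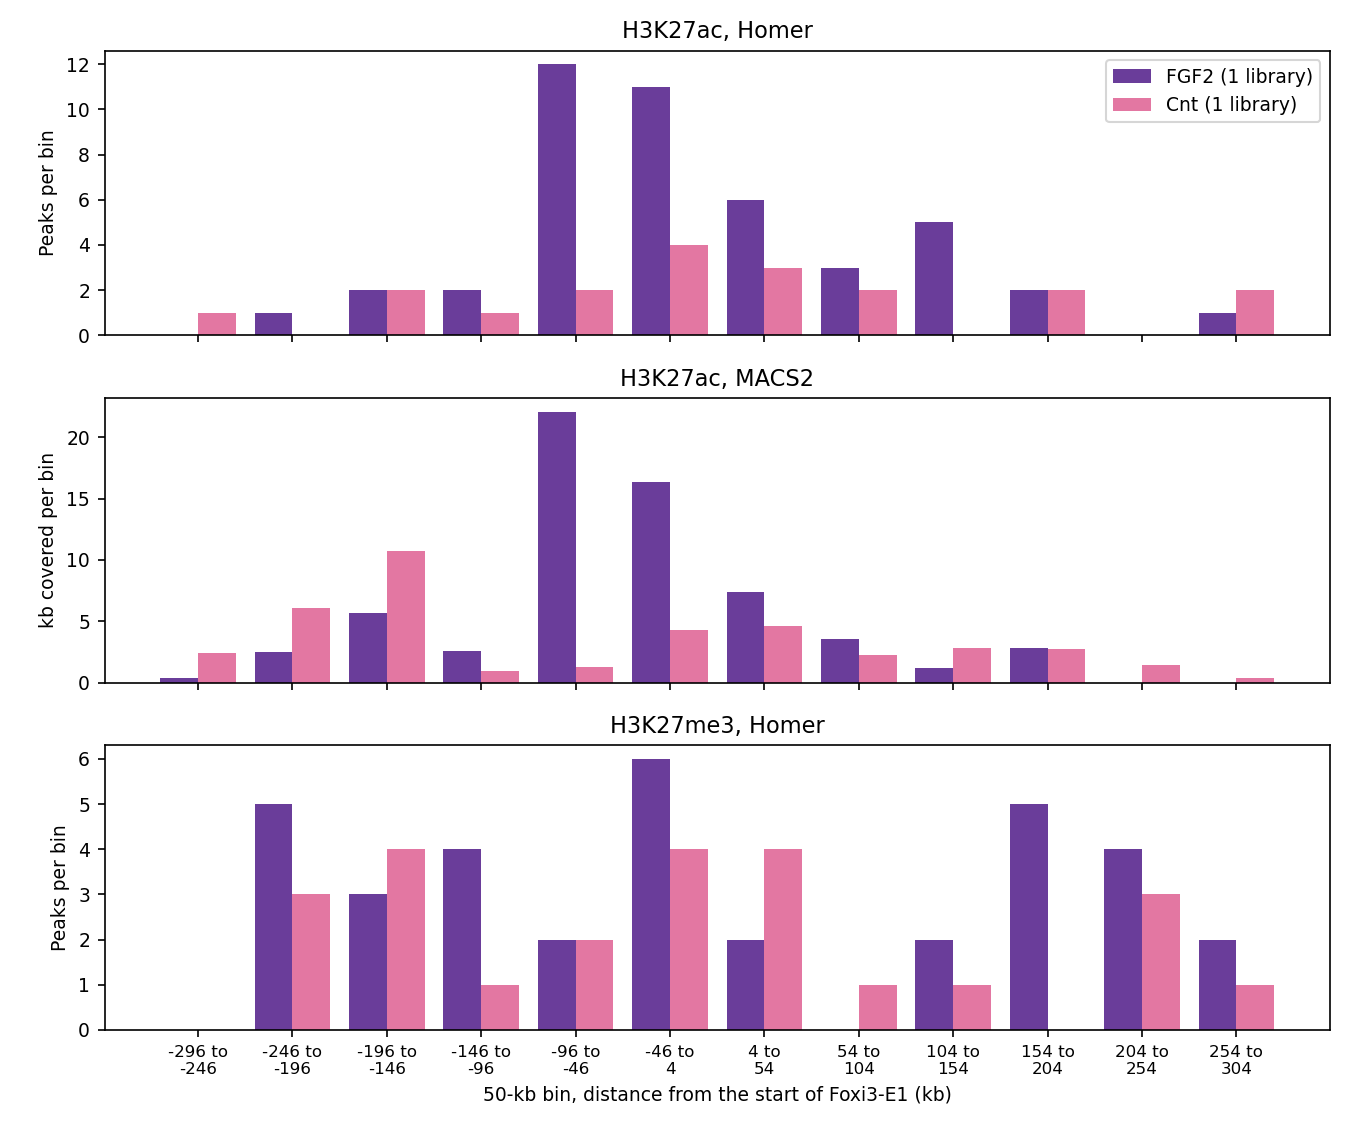
Homer H3K27ac peaks, kb covered by MACS2 H3K27ac and Homer H3K27me3 peaks in 50-kb bins, with FGF2 (violet) left of Cnt (pink) and 1 library behind each bar; the x axis gives each bin's distance from Foxi3-E1 in kb. FGF2 exceeds Cnt in H3K27ac by both callers from -95.8 to 54.2 kb, where H3K27me3 counts are 10 in each condition.

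Peaks of FGF2 explants lined up in long runs, defined as peaks less than 5 kb apart. The longest had 12 Homer peaks over 40.0 kb (chr4:85532306-85572318), ending -22.8 kb from Foxi3-E1. A run of 6 peaks over 13.8 kb (chr4:85513429-85527244) lay before it. A run of 5 peaks over 10.3 kb (chr4:85588997-85599344) contained Foxi3-E1, and a run of 3 peaks over 5.25 kb (chr4:85610658-85615902) touched Foxi3-E2. In Cnt no run had more than 2 Homer peaks, and 11 of its 15 runs were lone peaks, against 9 of 17 in FGF2. With 45 FGF2 and 19 Cnt Homer peaks in the window, longer runs in FGF2 follow in part from the counts. Runs were not counted over the genome. By MACS2 the longest run had 8 intervals over 44.1 kb in FGF2 (chr4:85523533-85567608) and 4 intervals over 11.6 kb in Cnt (chr4:85553152-85564777). The Cnt run lay within the FGF2 run, so MACS2 placed its longest run in this stretch in both conditions.

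Of the FGF2 Homer H3K27ac peaks, 38 of 45 shared no base with a Cnt Homer peak, or 84.4% (95% Wilson interval 71.2 to 92.3%), compared with 64.4% of FGF2 peaks over the genome. Of the Cnt Homer peaks, 12 of 19 (63.2%) had no FGF2 counterpart, compared with 59.3% over the genome. Such Wilson intervals cover counting error only. With 19 Cnt peaks beside 45 of FGF2, many FGF2 peaks could have no counterpart, so their share follows in part from the counts. Over the genome the lists were nearer in size, 37405 in FGF2 and 32725 in Cnt. By MACS2, 15 of 31 FGF2 intervals (48.4%, genome 41.7%) and 25 of 44 Cnt intervals (56.8%, genome 57.4%) were unshared. MACS2 also called 32 of the 45 Homer peaks in FGF2 (71.1%, genome 59.1%) and 14 of the 19 in Cnt (73.7%, genome 70.7%). In the other direction, Homer also called 23 of the 31 MACS2 intervals in FGF2 (74.2%, genome 70.4%) and 14 of the 44 in Cnt (31.8%, genome 53.6%).

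Shared MACS2 intervals did not have the same extent. The FGF2 interval of 9635 bp contained 2 Cnt intervals of 256 and 402 bp, which covered 6.83% of it. The interval of 6454 bp contained Cnt intervals of 441 and 330 bp, which covered 11.9%. The interval of 5049 bp shared 731 bp with 2 Cnt intervals, or 14.5%. The central 3 bins were picked by FGF2 Homer H3K27ac peaks of the same library, so their contrast with the other bins is a description. In the central 3 bins, 7 of 16 FGF2 intervals were shared, and Cnt covered a median of 14.5% of them. In the other bins, 9 of 15 were shared and Cnt covered a median of 89.4%, close to the genome median of 88.6%. Read from the other condition, FGF2 covered a median of 100% of the 10 shared Cnt intervals in the centre and of 72.7% of the 9 in the other bins. Most shared Cnt intervals of the centre were thus narrow and lay inside FGF2 intervals. An exception was the FGF2 interval of 592 bp at chr4:85621544-85622135, inside a Cnt interval of 2789 bp. At the sides the extents were mixed. An FGF2 interval of 362 bp (chr4:85760290-85760651) lay inside a Cnt interval of 1615 bp, and 4 of the 9 shared Cnt intervals there were covered by between 17.4 and 23.6%. Places with wide overlap at the sides were chr4:85397937-85400152 (2216 bp in FGF2), contained whole in a Cnt interval of 2740 bp, and chr4:85690083-85691276 (1194 bp in FGF2), of which Cnt covered 89.4%.

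Calls were strictest where both callers found H3K27ac in one condition and neither found it in the other. There were 12 such Homer peaks among the 45 of FGF2 (26.7%, genome 16.9%) and 7 among the 19 of Cnt (36.8%, genome 24.8%). Of the 12 in FGF2, 5 followed each other in the longest run, at chr4:85534911-85535661, chr4:85538058-85538808, chr4:85541048-85541798, chr4:85545705-85546455 and chr4:85548405-85549155. The second and the third of these lay in the same MACS2 interval of 3298 bp. The others were at -123, -28.1, 20.4, 32.4, 34.8, 104 and 200 kb from Foxi3-E1. The peak at 20.4 kb (chr4:85615152-85615902) lay in the run beside Foxi3-E2. H3K27me3 of some list also touched 4 of the 12, at -123, -46.4, -28.1 and 34.8 kb. In Cnt the 7 peaks lay at -275, -162, -120, -20.0, 13.4, 174 and 256 kb, and H3K27me3 touched those at -20.0 and 13.4 kb. The peaks specific to Cnt by this rule were thus spread over the window, and 9 of the 12 specific to FGF2 lay between -59.9 and 34.8 kb. These limits were set by the peaks themselves. The central 3 bins, which contain this range, held 64.4% of all FGF2 and 47.4% of all Cnt Homer peaks of the window. The location of the 12 thus follows in part from that of all FGF2 peaks. The peak at 13.4 kb (chr4:85608199-85608949) lay between the cloned elements.

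Around Foxi3-E1 itself, no H3K27ac peak of either caller touched the element. The nearest FGF2 Homer peak was 375 bp away (chr4:85594021-85594771), and the nearest Cnt Homer peak was 5158 bp away (chr4:85589238-85589988). The nearest MACS2 interval was 1260 bp away in FGF2 (chr4:85597017-85599160, 2144 bp wide) and 1270 bp away in Cnt (chr4:85597027-85597367, 341 bp wide). Foxi3-E1 thus lay in a gap of acetylation, flanked closely in FGF2 by Homer, while the distances of the MACS2 intervals were nearly equal. Both callers placed the nearest H3K27me3 over 10 kb away, with Homer peaks at 10.3 kb in FGF2 and 13.2 kb in Cnt.

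At Foxi3-E2, an FGF2 Homer peak (chr4:85610658-85611408) and an FGF2 MACS2 interval (chr4:85610719-85613040, 2322 bp) overlapped the element. The nearest Cnt Homer peak lay 2310 bp away (chr4:85608199-85608949) and the nearest Cnt MACS2 interval 554 bp away (chr4:85612325-85613152, 828 bp). H3K27ac was therefore called over this element in FGF2 only, in the lists used here. As the element was picked with these data, this is a description and no separate result. The nearest Homer H3K27me3 peak was 17.8 kb away in FGF2 and 1.56 kb away in Cnt (chr4:85608945-85609695). That Cnt H3K27me3 peak also touched the nearest Cnt Homer H3K27ac peak.

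**Figure D3:**
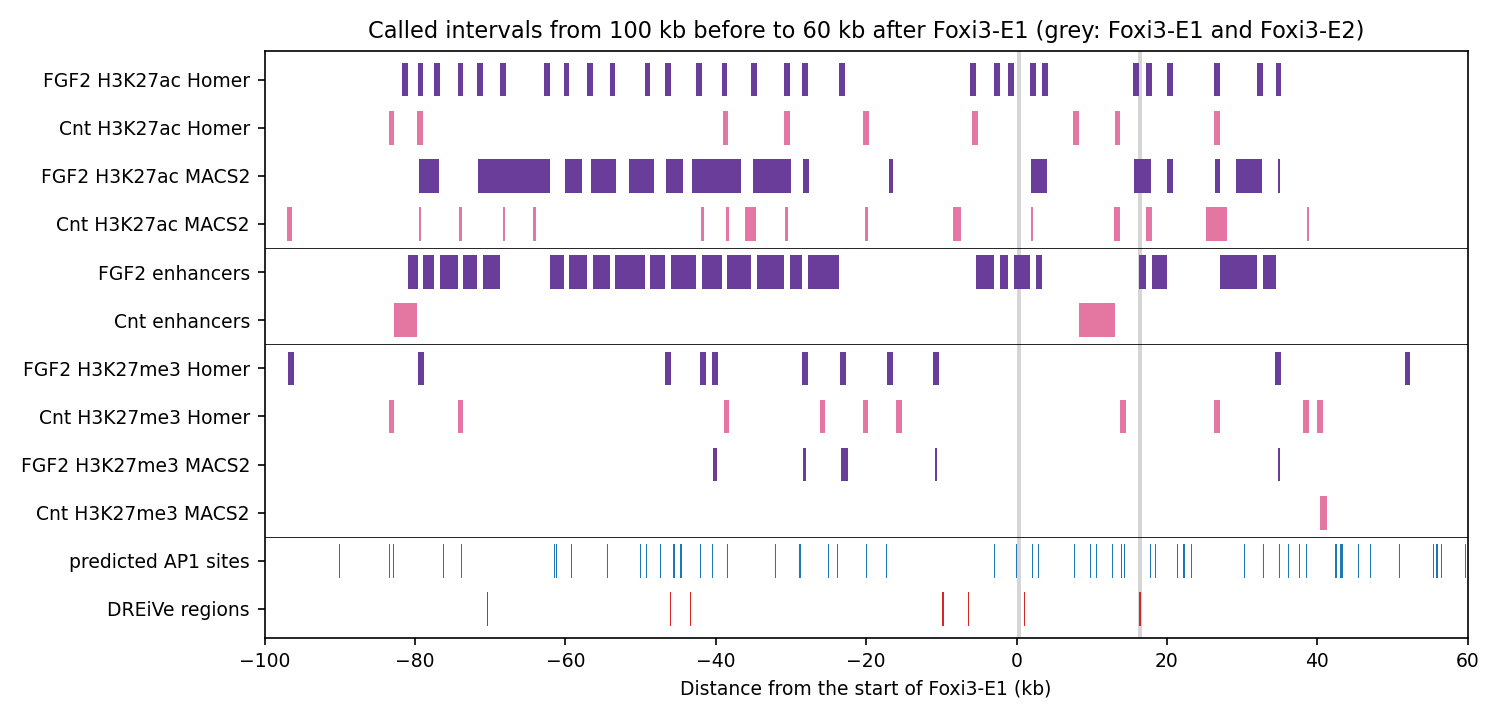
The same lists from 100 kb before to 60 kb after the start of Foxi3-E1 (x axis in kb), FGF2 in violet above Cnt in pink, with grey bars for Foxi3-E1 and Foxi3-E2 and with intervals narrower than 0.12 kb drawn 0.12 kb wide. The FGF2 run of 12 Homer peaks lies above wide FGF2 MACS2 intervals. The Cnt MACS2 intervals in the same stretch are narrow, and Foxi3-E1 lies in an FGF2 enhancer that holds no H3K27ac peak.

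The authors' list of putative enhancers, gaps between neighbouring H3K27ac peaks, held 28 entries in FGF2 and 4 in Cnt, covering 69.2 kb and 13.3 kb of the window. The ratio of 7 compares with 1.14 over the genome. Over the genome this list holds 12198 entries in FGF2 and 10674 in Cnt. The paper reports fewer putative enhancers, under a rule that limits the gap width and excludes H3K27me3 peaks. The list used here does not keep to that rule, so its counts are not the enhancer calls of the paper. Of the FGF2 enhancers, 26 of 28 (92.9%, Wilson interval 77.4 to 98.0%) shared no base with a Cnt enhancer, against 63.8% of FGF2 enhancers over the genome. With 4 Cnt entries beside 28 of FGF2, most FGF2 entries could have no counterpart, so this share largely follows from the counts. Of the Cnt enhancers, 2 of 4 were unshared (58.7% over the genome). The enhancers of FGF2 formed a group of 11 over 38.5 kb (chr4:85533057-85571567), a group of 5 over 12.3 kb (chr4:85514180-85526493), a group of 4 over 8.85 kb around Foxi3-E1 (chr4:85589748-85598593) and a pair at Foxi3-E2 (chr4:85611409-85615151). Within 100 kb of Foxi3-E1 there were 26 in FGF2 and 3 in Cnt. The 4 of Cnt were chr4:85429878-85433115, chr4:85512385-85515488, chr4:85603467-85608198 and chr4:85691329-85693577. The second and the fourth overlapped an FGF2 enhancer, and the third lay between Foxi3-E1 and Foxi3-E2.

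All 28 FGF2 enhancers and all 4 Cnt enhancers were exact gaps between Homer peaks, so their number follows from the Homer peaks and is no separate measurement. In FGF2, 20 of 28 (71.4%, genome 52.9%) had both flanking peaks called by MACS2 too, against 2 of 4 in Cnt (genome 71.1%). No Cnt H3K27ac interval of either caller touched 16 of the 28 (57.1%, genome 31.9%), and no FGF2 interval touched 2 of the 4 in Cnt (genome 33.8%). The dip seen by Homer overlapped a MACS2 H3K27ac interval of the same library in 18 of 28 FGF2 enhancers (64.3%, genome 57.2%) and in 2 of 4 Cnt enhancers (genome 66.3%). Wider than 3 kb were 8 in FGF2 and 3 in Cnt, and 5 in FGF2 and 2 in Cnt overlapped a Homer H3K27me3 peak of their own condition. For these counts and the derived ones below, no genome share was computed, so they stand without a base. When gaps of up to 3 kb without H3K27me3 were derived anew from the Homer peaks, 16 remained in FGF2 and 1 in Cnt. This rule follows the one stated in the paper. From MACS2 peaks the same rule gave 10 in FGF2 and 9 in Cnt, so by this rule the difference was nearly absent. The rule drops gaps with H3K27me3, for which MACS2 listed 29 intervals in FGF2 and 3 in Cnt. It thus does not act alike on both conditions. With Homer peaks and H3K27me3 not used, gaps of up to 3 kb numbered 20 in FGF2 and 1 in Cnt. How far H3K27me3 set the counts from MACS2 peaks was not tested.

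The enhancer with Foxi3-E1 (chr4:85594772-85596968, 2197 bp) was found in FGF2 only and held 1 AP1 site and 1 DREiVe region. Of its flanks, 1 was also called by MACS2. The other FGF2 enhancer with both features was chr4:85549156-85552503 (3348 bp), with 5 AP1 sites, the most of any enhancer in the window, and 1 DREiVe region. MACS2 called both its flanks and covered 2.08 kb of it, no Cnt H3K27ac interval touched it, and a Homer H3K27me3 peak of FGF2 overlapped it. The enhancer at Foxi3-E2 (chr4:85611409-85612363, 955 bp) held a DREiVe region and no AP1 site, and a Cnt MACS2 interval touched it. The FGF2 MACS2 interval at the element covered its whole length.

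H3K27me3 was called more often in FGF2 as well, which was so over the genome. Homer listed 35 peaks in FGF2 and 24 in Cnt, a ratio of 1.46 that is close to the genome ratio of 1.56, and 55.9% of 1637 tiles had a ratio as large or larger. MACS2 listed 29 intervals over 24.6 kb in FGF2 and 3 over 2.43 kb in Cnt. This ratio of 9.67 stands beside 23.7 over the genome, where the Cnt list is short. The 3 of Cnt were chr4:85360889-85362026, chr4:85429298-85429665 and chr4:85635468-85636388. Most of the FGF2 excess lay in the other 9 bins, which make up most of the window. In the central 3 bins Homer called 10 H3K27me3 peaks in each condition, and in the other 9 bins it called 25 in FGF2 and 14 in Cnt. The central bins, 25% of the window, thus held 28.6% of the FGF2 and 41.7% of the Cnt Homer peaks. By MACS2 there were 5 in FGF2 (17.2%) and 1 in Cnt (33.3%) inside, covering 2.27 kb in FGF2 and 0.921 kb in Cnt. Outside there were 24 in FGF2 and 2 in Cnt. The widest was chr4:85364270-85366689 of FGF2 (2420 bp). Few Homer H3K27me3 peaks occurred in the same place, with 32 of 35 in FGF2 (91.4%, genome 86.5%) and 21 of 24 in Cnt (87.5%, genome 78.9%) unshared. By MACS2, 28 of 29 in FGF2 (96.6%, genome 97.3%) and 2 of 3 in Cnt (66.7%, genome 40%) were unshared. MACS2 also called 19 of the 35 Homer peaks in FGF2 (54.3%, genome 47.2%) and 3 of the 24 in Cnt (12.5%, genome 4.81%).

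Some intervals carried both marks. Of the Homer H3K27ac peaks, 12 of 45 in FGF2 (26.7%, genome 17.4%) and 6 of 19 in Cnt (31.6%, genome 8.84%) overlapped Homer H3K27me3 in the library of that condition. By MACS2 there were 8 of 31 in FGF2 (25.8%, genome 16.6%) and 2 of 44 in Cnt (4.55%, genome 0.858%). The 12 of FGF2 lay at -197, -109, -79.3, -46.4, -42.3, -28.1, -23.2, 34.8, 119, 145, 185 and 287 kb from Foxi3-E1. The 6 of Cnt lay at -166, -83.1, -38.7, -20.0, 13.4 and 26.6 kb. Explants hold many cells, so marks on the same and on different chromosomes cannot be told apart. Some of these peaks had nearly the same position for both marks, such as chr4:85429127-85429877 (H3K27ac) and chr4:85429128-85429878 (H3K27me3) in Cnt. Others were offset, such as chr4:85552504-85553254 (H3K27ac) and chr4:85553056-85553806 (H3K27me3) in FGF2. Why some positions coincide so closely was not tested. Without every H3K27ac peak that touched H3K27me3 of any list, Homer left 29 in FGF2 and 11 in Cnt, and MACS2 left 39.0 kb in FGF2 and 24.1 kb in Cnt.

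At some places the conditions carried different marks. Homer found H3K27ac in FGF2 at 3 of the 24 Cnt H3K27me3 peaks (12.5%, genome 10.6%), at chr4:85520825-85521575, chr4:85555920-85556670 and chr4:85621423-85622173. At the last 2 of these Homer also called H3K27ac in Cnt, and at the first MACS2 did (chr4:85520987-85521342, 356 bp). The opposite, H3K27me3 in FGF2 at a Cnt H3K27ac peak, was found by Homer at 2 of 19 (10.5%, genome 7.2%). At chr4:85861090-85861840 neither condition had the other mark by Homer, whereas at chr4:85515489-85516239 the FGF2 library also had H3K27ac. By MACS2, H3K27ac of FGF2 overlapped 2 of the 3 Cnt H3K27me3 intervals (66.7%, genome 24.2%). Both of these also had H3K27ac in Cnt. H3K27me3 of FGF2 overlapped 5 of the 44 Cnt H3K27ac intervals (11.4%, genome 10.7%). Of these 5, FGF2 had no H3K27ac at chr4:85366019-85366989 and chr4:85420950-85421619, and Homer called H3K27me3 in Cnt at both. FGF2 had H3K27ac at the others by MACS2. Except for the few Cnt H3K27me3 intervals of MACS2, these shares were near those over the genome. One place, chr4:85360934-85362038, was called by MACS2 in all 4 libraries, and the 4 intervals there were nearly congruent.

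The window held 317 AP1 entries, which joined to 212 sites, or 0.354 per kb. A Homer H3K27ac peak lay within 5 kb of 94 sites in FGF2 (44.3%, Wilson interval 37.8 to 51.1%) and of 68 in Cnt (32.1%, 26.2 to 38.6%). Over all 7 windows with AP1 predictions the shares were 55.3% in FGF2 and 38.9% in Cnt. The difference in the Foxi3 window was 12.3 percentage points (interval 3.01 to 21.2, counting error only). With peaks that both callers found it was 7.55 points (-1.27 to 16.2), and within 10 kb it was 8.49 points (-0.966 to 17.7). These intervals take the sites as independent, although both conditions were read at the same sites and neighbouring sites share peaks. Within 1 kb lay 47 sites in FGF2 (22.2%, other 6 windows 24.5%) and 17 in Cnt (8.02%, other 6 windows 14.9%) by Homer. By MACS2 there were 53 in FGF2 (25%, other windows 25.6%) and 43 in Cnt (20.3%, other windows 26.6%). The FGF2 shares were thus near or below those of the other windows. Inside Homer H3K27ac peaks lay 14 sites in FGF2 (6.60%, all windows 6.86%) and 7 in Cnt (3.30%, all windows 3.94%). Inside MACS2 H3K27ac intervals lay 29 in FGF2 (13.7%, 12.2% over the windows without rounded positions) and 16 in Cnt (7.55%, 10.7% over those windows). With MACS2 the direction turned, with 102 sites in FGF2 (48.1%) and 119 in Cnt (56.1%) within 5 kb, beside 51.5% in FGF2 and 53.7% in Cnt over the windows without rounded positions. The median distance to Homer H3K27ac was 7.40 kb in FGF2 and 9.37 kb in Cnt, and to MACS2 H3K27ac 5.39 kb in FGF2 and 4.25 kb in Cnt. In the central 3 bins, which make up 25% of the window, lay 64 of the 212 sites (30.2%).

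**Figure D4:**
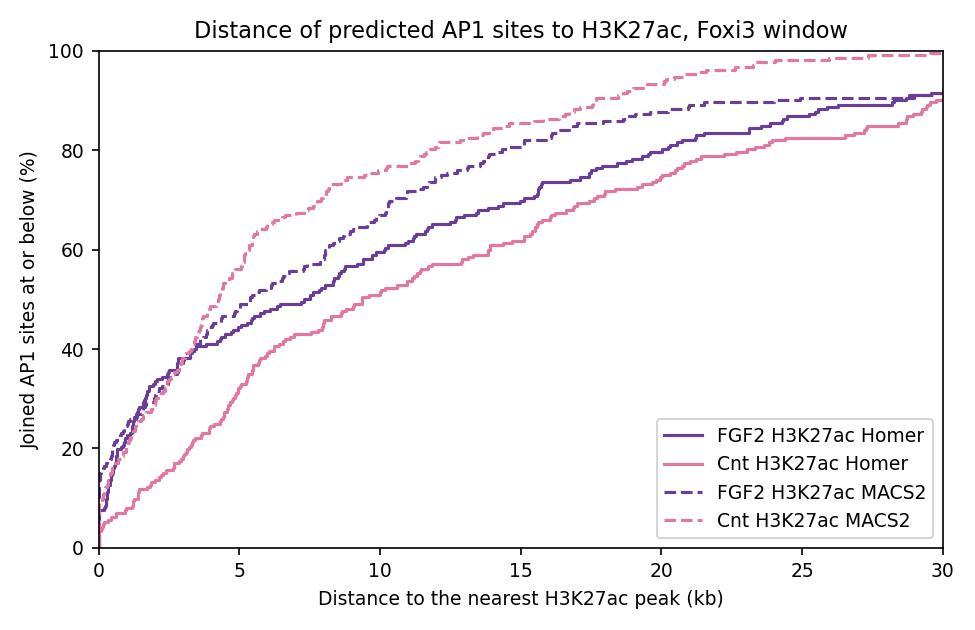
Cumulative share of the 212 joined AP1 sites (y axis, %) by distance to the nearest H3K27ac peak (x axis, kb, shown to 30 kb), for FGF2 (violet) and Cnt (pink) by Homer (solid lines) and MACS2 (dashed lines). By Homer the FGF2 line is above the Cnt line at 5 kb (44.3% and 32.1%), and by MACS2 it is below (48.1% and 56.1%).

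Inside FGF2 enhancers lay 31 AP1 sites (14.6%, all windows 11.6%), or 0.448 per kb, against 0.341 per kb in the rest of the window. Inside Cnt enhancers lay 5 (2.36%, all windows 6.35%), or 0.375 per kb, against 0.353 per kb in the rest. Within 5 kb of an enhancer lay 61 sites in FGF2 (28.8%, all windows 28.1%) and 19 in Cnt (8.96%, all windows 18.5%). At least 1 AP1 site was held by 21 of 28 FGF2 enhancers and by 3 of 4 Cnt enhancers, 75% in each condition. The same share over the enhancers of the other windows was not computed, so these counts stand without a base. H3K27me3 was also near: an FGF2 Homer H3K27me3 peak lay within 5 kb of 113 of 212 sites (53.3%), against 25.4% of the sites of the other 6 windows. For Cnt, 69 of 212 sites (32.5%) had such a peak within 5 kb, against 27% in the other windows. The Foxi3 window held 35 FGF2 Homer H3K27me3 peaks, and the other windows 8 to 32. Inside the FGF2 Homer peaks lay 4 sites (1.89%, other windows 1.73%), or 0.152 per kb, against 0.363 per kb in the rest of the window. Inside the Cnt Homer peaks lay 12 sites (5.66%, other windows 2.42%). With MACS2 the density in FGF2 turned. Its FGF2 H3K27me3 intervals held 12 sites, or 0.487 per kb, against 0.348 per kb in the rest of the window. These were 5.66% of the sites, against 1.97% in the other windows without rounded positions. The Cnt MACS2 intervals held 1 site. The site nearest to Foxi3-E1 was 98 bp outside it (chr4:85595040-85595048), and that nearest to Foxi3-E2 was 1125 bp away (chr4:85612896-85612905). None of the listed sites thus lay within either cloned element. A separate motif scan in the paper does list a motif for cJun, a Jun protein, in Foxi3-E1. The paper also reports that a dominant negative Fos inhibited binding of the acetylase p300 at this element.

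DREiVe listed 9 conserved regions in the window, 8 of them in the central 3 bins. A Homer H3K27ac peak lay within 1 kb of 7 in FGF2 (77.8%) and of 1 in Cnt (11.1%). Over all 356 joined DREiVe regions of the series the shares were 12.1% in FGF2 and 7.02% in Cnt. A MACS2 interval lay within 1 kb of 6 in FGF2 and of 3 in Cnt, beside 15.6% in FGF2 and 11.9% in Cnt over the 270 regions without rounded positions. Within 5 kb the direction turned by MACS2, with 6 regions in FGF2 and 8 in Cnt, and no genome share was computed. FGF2 enhancers overlapped 4 of the 9 (5.34% of all regions) and Cnt enhancers 0 of the 9 (2.53% of all regions). The 4 were chr4:85524763-85524858, in the FGF2 MACS2 interval of 9635 bp, chr4:85551713-85551809, in the enhancer with 5 AP1 sites, chr4:85596161-85596222, 404 bp from Foxi3-E1, and chr4:85611417-85611709, within Foxi3-E2. The region chr4:85549080-85549150 lay inside an FGF2 H3K27ac peak by both callers, and a Homer H3K27me3 peak of FGF2 lay there too. The region chr4:85588654-85588879 was near Homer H3K27ac in both conditions, 0.117 kb away in FGF2 and 0.358 kb in Cnt. By MACS2 it was 8.14 kb away in FGF2 and 0.914 kb in Cnt. The region chr4:85616684-85616813 was 0.781 kb from a Homer peak in FGF2 and 4.59 kb in Cnt (MACS2 0.771 kb in FGF2 and 3.53 kb in Cnt). The remaining regions were farther from Homer H3K27ac. The region chr4:85585196-85585454 was 3.54 kb from a Homer peak in FGF2 and 3.78 kb in Cnt. By MACS2 it was 6.42 kb away in FGF2 and 1.3 kb in Cnt. The region chr4:85672514-85672802, which overlapped an AP1 site, was 17.3 kb from a Homer peak in FGF2 and 17.8 kb in Cnt. By MACS2 it was 12.3 kb away in FGF2 and 17.4 kb in Cnt.

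Set beside the other 6 windows of AP1 predictions, the Foxi3 window was the third highest by the ratio of Homer H3K27ac peaks. The other window on chromosome 4 (chr4:52478299-53074894) had 54 peaks in FGF2 and 8 in Cnt, a ratio of 6.75. The window on chromosome 1 (chr1:151598781-152196702) had 47 in FGF2 and 10 in Cnt, a ratio of 4.70. The windows on chromosomes 13, 26, 6 and 7 had ratios between 0.968 and 1.16. Putative enhancers numbered 27 in FGF2 and 1 in Cnt in the other window on chromosome 4, and 19 in FGF2 and 1 in Cnt in that on chromosome 1. H3K27me3 differed between these windows. Homer called 9 peaks in FGF2 and 15 in Cnt in the other window on chromosome 4, and 8 in FGF2 and 18 in Cnt in that on chromosome 1, whereas the Foxi3 window had 35 in FGF2 and 24 in Cnt. The FGF2 excess was not particular to Foxi3. The window on chromosome 7 had 32 in FGF2 and 21 in Cnt, and that on chromosome 26 had 21 in FGF2 and 16 in Cnt. On chromosome 13 there were 28 in FGF2 and 24 in Cnt, and on chromosome 6 there were 22 in FGF2 and 30 in Cnt. The differences between windows were not tested.

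**Figure D5:**
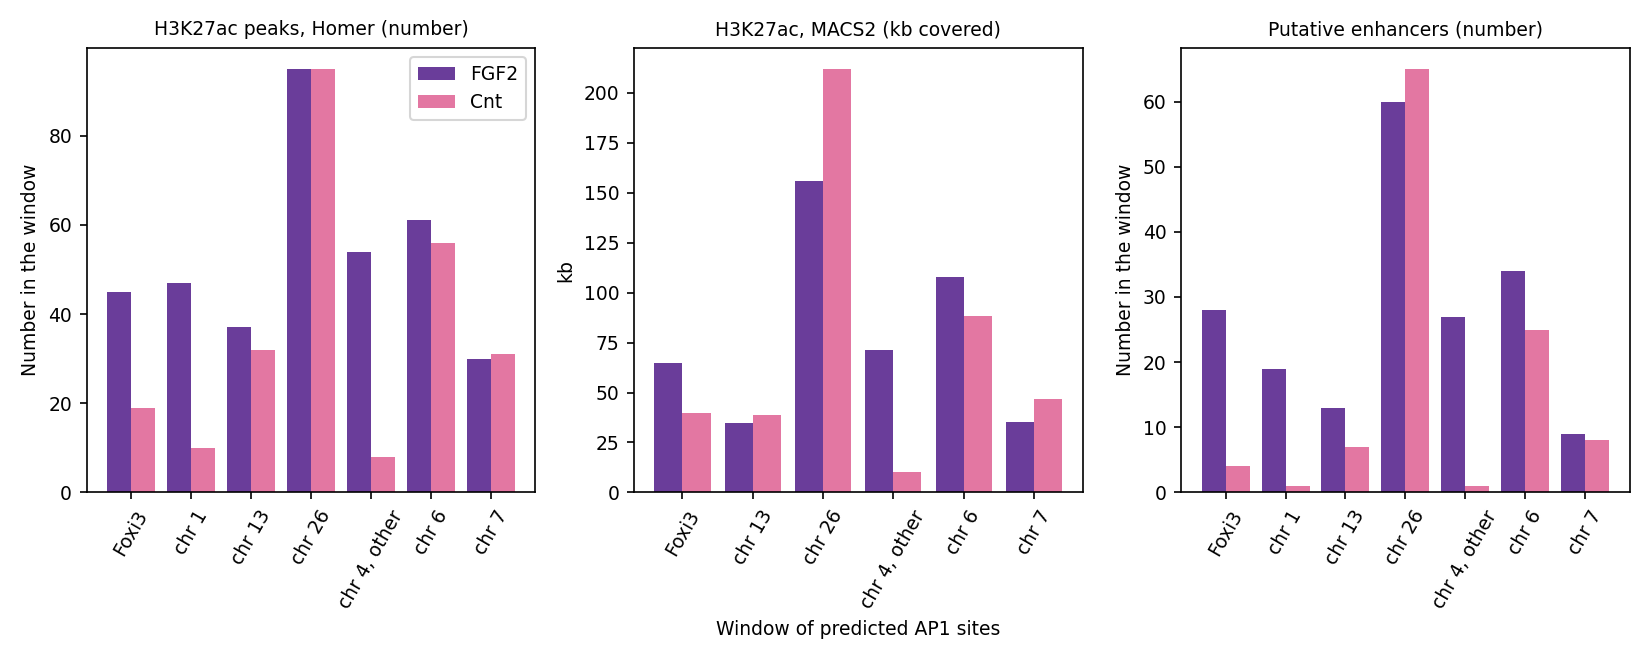
Homer H3K27ac peaks, kb covered by MACS2 H3K27ac and putative enhancers in the Foxi3 window and the other 6 windows with AP1 predictions, with FGF2 (violet) left of Cnt (pink) and 1 library behind each bar. The window on chromosome 1 is left out of the MACS2 panel, because Cnt positions there are rounded. FGF2 exceeds Cnt in all 3 panels in the Foxi3 window (45 and 19 peaks, 64.6 and 39.9 kb, 28 and 4 enhancers).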

How the data were processed

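Reads were trimmed by the authors and mapped with Novoalign to galGal4. Uniquely mapped reads served for peak calling over input, by Homer and by MACS2 (set for broad peaks). Each deposited list, per the file headers and values, holds start and end positions in bp, counted from 0 and printed here from 1. The deposited lists named for Homer enhancers repeat the H3K27ac peaks and were not used. Groups were taken from the sample titles. Another label of the FGF2 H3K27me3 and input libraries ends in a different FGF number. On chromosomes 1, 2 and 3, the control MACS2 lists give rounded positions beyond 100 Mb, and these parts were left out of genome values in both conditions, and 477 blank lines of the control H3K27me3 list were skipped.

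An interval belonged to the window when it shared at least 1 bp with it, and intervals overlapped when they shared at least 1 bp. Covered length counts each base of the window 1 time. Overlapping AP1 or DREiVe entries were joined. Shares have 95% Wilson intervals. No test was made. Tiles are consecutive stretches of the window's length with at least 10 intervals in both conditions together. Members and rules were chosen with earlier results of these data known. Lists of up to 10 members were named in full where results turn on them. From longer lists the text names intervals nearest to the cloned elements, called by both callers in 1 condition, holding both an AP1 site and a DREiVe region, carrying both marks, or forming the longest runs. Other intervals it names, such as the widest, were chosen after their values were seen. Both the overlap step and the gap step were tested with simulated intervals of known answers. Computations used Python 3.11.15, and figures used matplotlib 3.10.9. Other settings tried were the caller, distances, gaps, joining and a narrower window of 200 kb. No galGal4 genome or annotation was used.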

Additional observations from a re-analysis of the deposited data

How the results depend on the processing

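With MACS2 the difference in the number of H3K27ac intervals, FGF2 minus Cnt, was -13 in place of 26, and the share of AP1 sites near H3K27ac differed by -8.02 in place of 12.3 percentage points. The share of FGF2 H3K27ac peaks without a Cnt peak was 48.4% with MACS2 in place of 84.4%. The H3K27me3 difference was 26 with MACS2 in place of 11, and -1 within the 200 kb around the midpoint of Foxi3-E1 and Foxi3-E2. The difference in putative enhancers, 24 in the authors' lists, was 15 when derived with gaps up to 3 kb, 8 with gaps up to 2 kb and 1 from MACS2 peaks. For DREiVe regions near H3K27ac it was 3 with MACS2, 1 by overlap and 3 within 5 kb, in place of 6. With MACS2 and 5 kb together its direction turned, with 6 regions in FGF2 and 8 in Cnt. Some alternatives were chosen after seeing the data: the length covered in place of the number, and both measures without peaks that touch H3K27me3. The difference in length covered by H3K27ac was 19.5 kb with Homer and 24.7 kb with MACS2. With MACS2 it was 37.8 kb within the 200 kb and -13.1 kb outside them. The cause of these changes was not tested. Among single changes of a setting, every other one that was run kept the direction. The AP1 difference was 7.55 points with peaks of both callers and 8.49 points within 10 kb, with counting intervals that include 0. Without replicates no library could be left out. No paired analysis was possible because each condition and mark has 1 library. Depth is unknown from the lists, so whether the libraries' depths set the number and width of their peaks was not tested.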
